A study of Homo sapiens with 2 samples.

Results

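To map where the transcription factor MYBL2 sits on chromatin in Ewing sarcoma (EwS), the study profiled A673 cells, an established EwS cell line, by chromatin immunoprecipitation and sequencing (ChIP-seq). There was 1 library made with an antibody against MYBL2, which the study's methods describe as recognising the activated, phosphorylated protein, and 1 input library of sheared chromatin from the same line with no antibody. Both came from cells labelled wild type with no treatment named, so the series holds no genetic or drug comparison, and with 1 library per group no replicate error and no test could be given. The peaks on chromosome 18 are described here, which are the 1379 lines of the authors' peak list that carry this chromosome name, of 66954 in all. The chromosome was picked for the high local background that its peaks had in the input and for its low number of genes. Both properties held in the files, and both are given below as descriptions only. The list does not itself show that the cells are A673 cells.

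MYBL2 is a member of the MYB family that joins the MuvB core of the DREAM complex late in the cell cycle, where it helps to switch on genes for mitosis. MuvB binds a promoter element called the cell cycle genes homology region (CHR), and MYB proteins bind a short site of their own. In a peak list, a region is called when more ChIP fragments pile up at its summit than a local background allows. That background is the largest of several averages of the scaled input, taken over the fragment, over 1 kb and over 10 kb around the summit, with the genome-wide average as its floor. A region that has more input reads therefore needs more ChIP fragments to be called.

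The sequences that follow are 101 bases centred on the summit of 7 peaks, on the plus strand of GRCh37, which has the hg19 coordinates of the list. The first 4 are among the 5 strongest peaks of the chromosome, TGIF1 has one of the widest peaks, and the last pair shows the strongest distal peak and the peak with the highest background. Capitals mark matches, on either strand, to a MYB site (TAACGG and also TAACTG and likewise CAACGG and also CAACTG), a CHR element (TTTGAA and the variant spelled TTCGAA), the NF-Y element known as the CCAAT box, an E2F site, an ETS core or an AP-1 site.
CTDP1 promoter, chr18:77439698-77439798: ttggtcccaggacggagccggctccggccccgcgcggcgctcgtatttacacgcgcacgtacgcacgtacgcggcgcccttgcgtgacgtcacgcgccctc
RPL17 promoter, chr18:47018788-47018888: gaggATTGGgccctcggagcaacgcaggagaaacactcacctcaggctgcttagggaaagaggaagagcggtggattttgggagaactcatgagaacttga
NDC80 and METTL4 promoter, chr18:2571486-2571586: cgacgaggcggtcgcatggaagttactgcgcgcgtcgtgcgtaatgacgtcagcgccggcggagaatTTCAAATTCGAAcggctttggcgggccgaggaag
TIMM21 and FBXO15 promoter, chr18:71815654-71815754: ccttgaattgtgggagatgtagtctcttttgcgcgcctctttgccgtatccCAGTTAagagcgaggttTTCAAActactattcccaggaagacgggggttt
TGIF1 promoter, chr18:3448317-3448417: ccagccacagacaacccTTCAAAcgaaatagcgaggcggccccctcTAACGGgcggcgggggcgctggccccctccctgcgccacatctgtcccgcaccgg
distal peak nearest to MRO, chr18:48274886-48274986: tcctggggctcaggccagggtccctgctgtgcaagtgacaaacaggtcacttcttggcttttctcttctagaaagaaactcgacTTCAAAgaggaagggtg
DLGAP1 intron, highest background, chr18:3771938-3772038: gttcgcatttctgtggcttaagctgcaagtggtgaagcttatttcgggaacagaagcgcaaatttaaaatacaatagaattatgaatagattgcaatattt
The NDC80 window held a pair of adjoining CHR elements, and the TIMM21 window held a MYB site and a CHR element. No element of these kinds was found in the CTDP1 window or in the DLGAP1 window.

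The 1379 peaks were 2.06% of the list on 2.63% of the ungapped bases and 1.32% of the protein-coding genes. Their density was 18.5 peaks per Mb without assembly gaps (95% exact Poisson interval 17.5 to 19.5), against 23.6 over all 23 chromosomes, and ranked 17 of 23. Chromosome 18 had 266 protein-coding genes, or 3.56 per Mb, which ranked 22 of 23. It thus had 5.18 peaks per coding gene, the highest of the 23 chromosomes, against 3.33 over all of them, 4.49 on chromosome 13, 3.65 on chromosome 4 and 2.40 on chromosome 17. Over the 23 chromosomes peak density and coding gene density had a Pearson's r of 0.88 and a Spearman's rho of 0.91, a description over points that share 1 library. On the chromosomes nearest to it in gene density, peaks were sparser, with 15.1 per Mb on chromosome 13 and 14.8 per Mb on chromosome 4. The counting intervals of these chromosomes, 14.4 to 15.9 and 14.3 to 15.4, lay below that of chromosome 18. Such intervals treat peaks as independent. Peaks were clustered, however, with 0 to 109 per Mb over bins of 1 Mb on chromosome 18. The intervals are therefore too narrow and do not settle the order. The order of the 3 densities did not hold among peaks enriched at least 5-fold, an alternative added after the data were seen. Of these, chromosome 18 had 3.43 per Mb (3.02 to 3.87), chromosome 13 had 3.91 (3.53 to 4.33) and chromosome 4 had 3.44 (3.18 to 3.72), with overlapping intervals. With such peaks chromosome 18 also lost the first rank in peaks per coding gene, with 0.962 against 1.16 on chromosome 13 and 0.969 on chromosome 10. The fold enrichment contains the background by which the chromosome was chosen.

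**Figure D1:**
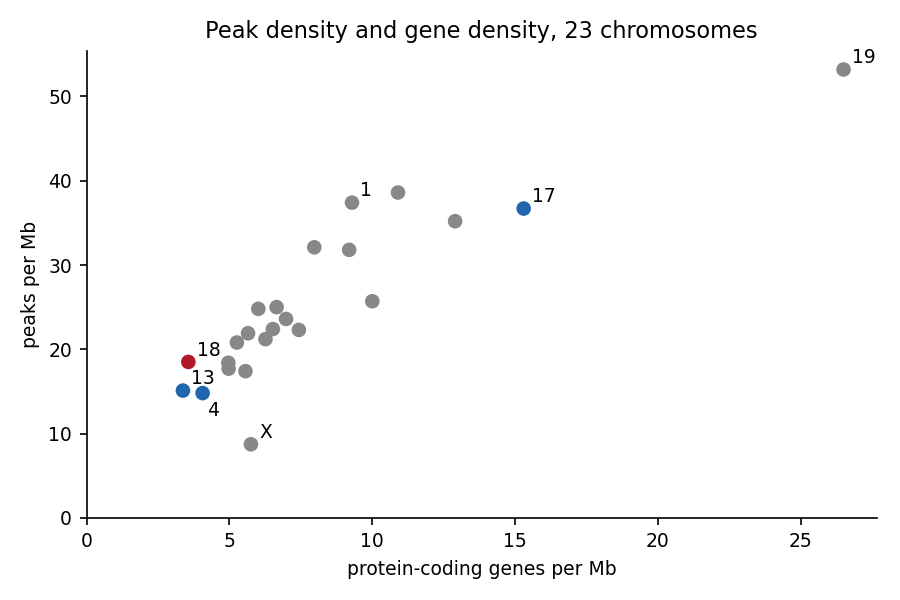
Peaks per Mb (vertical axis) against protein-coding genes per Mb (horizontal axis), both per Mb without assembly gaps, with 1 point for each of the 23 chromosomes. Chromosome 18 (red) had 3.56 coding genes and 18.5 peaks per Mb, above chromosomes 13 and 4 (blue, left) and below chromosome 17 (blue, right), which had 36.7 peaks per Mb.

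The peaks were narrow and mostly weak. Their median width was 300 bp (range 164 to 7966 bp), and together they covered 643 kb, or 0.862% of the ungapped chromosome. The authors' fold enrichment, the ratio of pileup to background at the summit with 1 added to each, had a median of 3.55 (range 2.04 to 36.5), against 3.79 on the other chromosomes. The pileup, which is the number of overlapping fragments at the summit and was solved here from the deposited columns, had a median of 21.0 fragments (range 12 to 176), against 20.0 elsewhere. Chromosome 18 therefore had slightly higher pileups and slightly lower fold enrichments than the rest of the list. A pileup of 20 has a 95% Poisson interval of 12.2 to 30.9 fragments, so single weak peaks of this size could not be ranked at this depth. At a fixed pileup of at least 30 fragments, chromosome 18 held 270 peaks, or 3.62 per Mb, between 2.73 on chromosome 13 and 4.56 over all other chromosomes.

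The background that chose the chromosome had a median of 4.97 fragments at its peaks (95% interval of the median 4.90 to 5.05, quartiles 4.44 and 5.66), the highest of the 23 chromosomes, against 4.19 on the others together. Chromosome 1, at 4.96, lay inside that interval, so the order of the highest pair is not resolved. The genome-wide floor of 3.45 fragments set the background of 32 chromosome 18 peaks, or 2.32% (1.59 to 3.26), against 20.6% of the peaks elsewhere. Chromosome 1 followed with 4.62%, while chromosomes 13, 4 and 17 had 25.5%, 24.9% and 27.9%. The difference from the other chromosomes was 0.780 fragments over all peaks and 0.384 fragments over peaks above the floor, where chromosome 18 ranked 2 of 23. On chromosome 18 the fragment-sized window set the background of 480 peaks, the 1 kb window that of 388 and the 10 kb window that of 479. Where the 10 kb window set it, the input held a median of 296 reads per 10 kb (quartiles 268 and 321), against 263 (245 and 292) at such peaks elsewhere.

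The background set how many fragments a peak needed. On chromosome 18 the smallest pileup in the list was 13 fragments at a background of 4.6 to 4.7, 15 at 5.5 to 5.7, 16 at 6.5 to 6.6 and 22 at 9 or more. At the floor the smallest pileup was 13 fragments on chromosome 18 and 11 over the whole list. The part of this in the peak densities above was not tested.

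**Figure D2:**
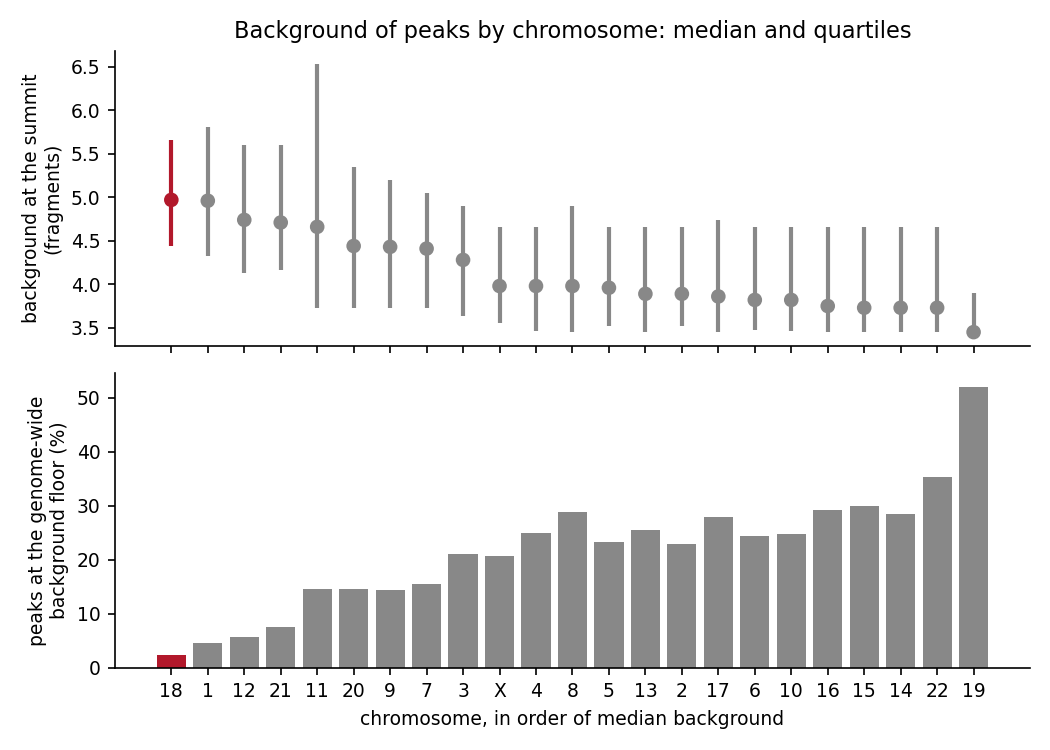
Background at the peak summits by chromosome, in fragments (top, median and quartiles), and share of peaks at the genome-wide floor, in percent (bottom), with chromosomes in order of the median. Chromosome 18 (red) had the highest median, 4.97, just above chromosome 1, and the lowest share at the floor, 2.32%.

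The short arm was denser than the long arm. It held 408 peaks on 15.4 Mb, or 26.5 per Mb (24.0 to 29.2), and the long arm held 971 on 59.3 Mb, or 16.4 per Mb (15.4 to 17.5), a ratio of 0.619. These intervals also treat clustered peaks as independent and are too narrow. Coding genes followed the same order, with 4.29 per Mb on the short arm and 3.38 on the long arm. Promoter peaks had a density of 9.09 against 4.69 per Mb and distal peaks of 17.4 against 11.7 per Mb. The strength and background of the arms were close, with median fold enrichments of 3.49 and 3.58 and median backgrounds of 5.05 and 4.93 fragments. The bound share of coding genes was also close, at 68.2% of 66 genes and 68.0% of 200.

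Peaks were unevenly spread along both arms. Over the 15 bins of 5 Mb with at least 2.5 Mb of ungapped sequence, the density ranged from 7.0 to 44.1 per Mb, with a coefficient of variation of 63.6%. The densest was bin 1, the first 5 Mb of the short arm, with 220 peaks, 157 of them distal, and 17 of its 20 coding genes bound. It holds THOC1, TYMS, YES1, NDC80, SMCHD1, TGIF1 and DLGAP1. Bin 4, which spans the centromere and has only 1.9 Mb of ungapped sequence, reached 63.2 peaks per Mb with 120 peaks. Of these, 109 lay in the single Mb from 19 to 20 Mb of the long arm, around ESCO1, SNRPD1, MIB1 and GATA6, and 93 of the 109 were distal. A second dense stretch ran from bin 10 to bin 12, at 29.2, 24.7 and 30.2 peaks per Mb, and contains SMAD4, DCC, TCF4, ATP8B1 and MALT1.

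The sparsest was bin 8, from 35 to 40 Mb, with 35 peaks, or 7.0 per Mb, and 2 coding genes, of which 1 was bound. Bin 6, which holds the desmosomal cadherin genes, had 38 peaks and 5 of 15 coding genes bound. Gene number did not order the bins closely: bin 7 had 4.4 coding genes per Mb and 10.6 peaks per Mb, whereas bin 11 had 2.27 coding genes and 24.7 peaks per Mb. Over the 15 bins, peak density and coding gene density had a Pearson's r of 0.38 and a Spearman's rho of 0.57, and peak density and median background 0.46 and 0.59. The bins share 1 library and 1 caller, so these coefficients are descriptions.

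The longest stretch without a peak ran for 3008 kb on the short arm, from chr18:5542341-8550092, across EPB41L3, L3MBTL4, ARHGAP28, LAMA1 and PTPRM. A stretch of 1961 kb at chr18:26383203-28344056 overlapped no coding gene. Another, of 1921 kb at chr18:74814650-76736074, overlapped MBP, which encodes myelin basic protein, and the galanin receptor gene GALR1. In bins of 1 Mb, 8 of 74 held no peak.

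**Figure D3:**
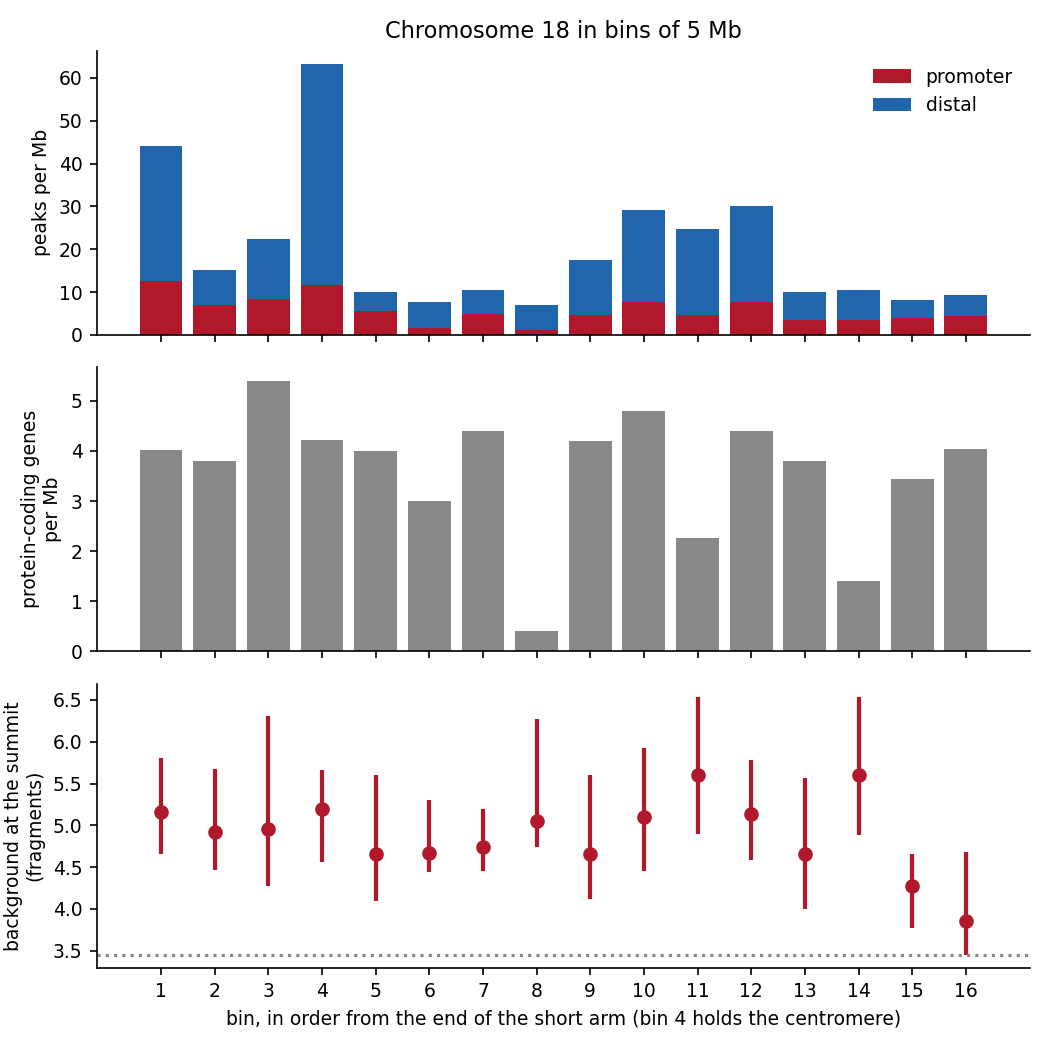
Peaks per Mb at promoters and elsewhere (top), protein-coding genes per Mb (middle) and background at the summits in fragments, as median and quartiles (bottom), for the 16 bins of 5 Mb of chromosome 18 in order from the end of the short arm. Bin 4, over the centromere, reached 63.2 peaks per Mb on 1.9 Mb of sequence, bin 1 reached 44.1, and the median background of bin 16 was the lowest at 3.85 fragments, near the floor of 3.45 (dotted line).

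The high background did not reach the end of the long arm. The bin medians lay between 4.66 and 5.60 fragments in bins 1 to 14 and fell to 4.28 in bin 15 and 3.85 in bin 16. Beyond 70 Mb, a boundary chosen after these values were seen, 14 of 68 peaks were at the floor (20.6%, 11.7 to 32.1), and before it 18 of 1311 (1.37%, 0.816 to 2.16). The share at the floor beyond 70 Mb thus had the same value as that of the other chromosomes, but the mix of peaks differed. Promoter peaks were 48.5% beyond 70 Mb and 34.3% on the other chromosomes. By class, 11 of 33 promoter peaks and 3 of 35 distal peaks beyond 70 Mb were at the floor. On the other chromosomes these shares were 31.1% and 15.2%. Within chromosome 18, more of the peaks beyond the boundary than before it were at promoters, 48.5% against 29.4%. The lower background was also found within each class, with medians of 3.76 against 4.66 fragments at promoters and 4.44 against 5.20 at distal peaks.

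A promoter was taken as 1000 bp either side of any transcription start site (TSS) of a protein-coding or lncRNA gene, and a peak that overlaps none is called distal. On chromosome 18, 418 peaks were at a promoter, or 30.3% (27.9 to 32.8), against 34.3% on the other chromosomes. The share was 26.5% on chromosome 13, 27.0% on chromosome 4 and 47.1% on chromosome 17. Promoter windows made up 4.74% of the ungapped bases of chromosome 18, so promoter peaks were 6.4 times as frequent as that share of bases, against 5.78 times over all chromosomes. The ratio was higher on the gene-poor chromosomes 13 and 4, at 7.62 and 7.16, and lower on chromosome 17, at 3.76. With the summit required to lie in the window, the promoter share of chromosome 18 was 28.0%. The other 961 peaks were distal, with a density of 12.9 per Mb. Of the distal peaks, 69.2% had the summit in an intron or another non-canonical part of a coding gene, 16.4% were intergenic, 8.43% lay in a lncRNA gene only and 4.89% in a 3′ UTR. Their summits lay a median of 11.6 kb from the nearest coding TSS. Over all 1379 peaks, 24.5% of summits were within 1 kb of a coding TSS and 10.5% were over 100 kb away.

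Promoter peaks were stronger than distal peaks. The median fold enrichment was 4.32 (quartiles 3.34 and 7.51) at promoters and 3.38 (2.92 and 4.01) at distal peaks, and the median pileup was 24.0 and 20.0 fragments. A fold enrichment of at least 5 was reached by 167 promoter peaks (40%) and 89 distal peaks (9.26%). Of the 57 peaks enriched at least 10-fold, 56 were at promoters and 1 was distal. With the peaks cut by fold enrichment into 5 sets of about 276, 18.5% to 18.8% were at promoters in the weakest 3 sets, 33.0% in the next and 62.5% in the strongest. The background, which enters the fold enrichment as its divisor, was lower at promoters, with medians of 4.66 and 5.20 fragments. The pileup does not contain that divisor. Promoter summits had a median GC content of 58.4% and distal summits of 39.6%, against 60.4% and 41.6% elsewhere.

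The strongest peak lay at the promoter of CTDP1, which encodes a phosphatase of the RNA polymerase II tail. It spanned chr18:77438805-77440072, where 176 fragments (151 to 204) stood over a background of 3.86, a fold enrichment of 36.5, and ranked 84 in the whole list. The promoter of the ribosomal protein gene RPL17 followed at chr18:47015891-47019160, at 33.4-fold with 171 fragments (146 to 199). The next, at chr18:2570951-2572063, lay between the divergent genes METTL4 and NDC80. NDC80 encodes an outer kinetochore subunit that ties chromosomes to spindle microtubules, and its peak was enriched 31.2-fold with 176 fragments (151 to 204). Its summit was 20 bp from the TSS and its window carried the pair of CHR elements shown above. The counting intervals of these 3 pileups overlap.

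GATA6, a transcription factor of endoderm and heart, had a peak of 27.9 at chr18:19746353-19748768 with a pileup of 123. The shared promoter of TIMM21, a part of the mitochondrial inner membrane translocase, and FBXO15 had a peak of 25.1 at chr18:71814831-71816120. Further peaks among the strongest 10 were those of TXNL4A at 22.1, a spliceosome protein, THOC1 at 18.2, a subunit of the THO complex that couples transcription to mRNA export, CEP192 at 17.5, a centrosome protein, and the pair PIGN and RELCH at 17.5. The summits of the peaks named here lay within 105 bp of a TSS. For the GATA6 peak this was the TSS of the lncRNA gene GATA6-AS1. The nearest coding TSS, that of GATA6, was 1.70 kb away. The backgrounds of the named peaks ranged from 3.45 to 4.67 fragments, below the median of the chromosome. These peaks were ranked by fold enrichment, which has the background in its divisor, so a low background favours a high rank.

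The strongest distal peak lay at chr18:48274563-48275451, 71.1 kb from the nearest coding TSS, that of MRO, and was enriched 12.1-fold with 67 fragments (51.9 to 85.1). The next lay in lncRNA genes far from coding genes, 558 kb from CDH2 at 9.85 and 421 kb from MEX3C at 9.68. An intron of ATP8B1 followed at 9.38, and a site 41.9 kb from PHLPP1 at 9.26. The pileups of these 5 distal peaks, 47 to 67 fragments, overlapped in their counting intervals.

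The 5 peaks with the highest backgrounds had lower fold enrichments, from 2.05 to 4.76. By the definition above, all of them except the TCF4 peak were at a promoter, that of DLGAP1 at the promoter of a lncRNA gene. A peak within DLGAP1 at chr18:3771566-3772119 had 32 ChIP fragments over a background of 12.1, a fold enrichment of 2.51. A TCF4 peak had 11.2 and 2.05, a PRELID3A peak 11.2 and 2.30 and a VAPA peak 10.3 and 2.13, each background followed by its fold enrichment. The last of the 5, in NDUFV2, a subunit of respiratory complex I, kept 4.76-fold enrichment with 57 fragments over a background of 11.2. The widest peak, of 7966 bp, ran over the start of APCDD1, an inhibitor of Wnt signalling, with its summit 7.16 kb from the TSS and a fold enrichment of 17.1. TGIF1, a repressor of TGF-beta signalling, had the next widest at 6427 bp and 12.4, and TCF4 another at 3610 bp and 5.45.

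A large part of the distal peaks lay in a few gene bodies. DLGAP1, which encodes a scaffold protein of the synapse, held 103 peaks in its 959 kb, 88 of them distal. TCF4, a transcription factor of the bHLH family, held 67, DCC, the netrin receptor, 63, MIB1, a ubiquitin ligase of the Notch pathway, 53, and ATP8B1, a phospholipid flippase, 42. Together these 5 genes, which span 2.92 Mb, held 328 peaks, or 23.8% of those on the chromosome, and 29.9% of its distal peaks. This concentration was not the highest in the list: the 2% of coding genes with the most peaks held 23.8% on chromosome 18, which ranked 10 of 23, 25% on chromosome 4 and 21.9% on chromosome 13. These genes were chosen by their number of peaks.

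The peaks within the 5 genes were alike in strength. Their median fold enrichments ran from 3.19 in TCF4 to 3.39 in DLGAP1 and their median pileups from 20.0 to 21.0 fragments. Spacing differed more, with a median of 1.32 kb between neighbouring summits in MIB1, 2.01 kb in TCF4, 2.23 kb in ATP8B1, 3.0 kb in DLGAP1 and 4.24 kb in DCC. Peaks covered 13.1% of MIB1 and 2.06% of DCC. Distal peaks in the 5 genes had a median fold enrichment of 3.30 and a background of 5.38 fragments, and those elsewhere on the chromosome 3.48 and 5.05. A fold enrichment of at least 5 was reached by 12 of the 287 distal peaks in the 5 genes and by 77 of the 674 elsewhere. Per length, the short genes TUBB6 and APCDD1 were denser, with 65.5 and 65.1 peaks per 100 kb, against 31.9 in MIB1.

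Not every long gene held peaks. Of 90 coding genes of 100 kb or more, 73 held at least 1 peak and 17 held none. The longest without one were PTPRM, a receptor tyrosine phosphatase, at 840.1 kb, FHOD3 at 483 kb and L3MBTL4 at 461 kb, none of which had a promoter peak. KIAA1328, of 403 kb, held no summit in its body although its promoter was bound. Over all 266 coding genes, 177 had a summit in the body, and 59 had 5 or more.

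**Figure D4:**
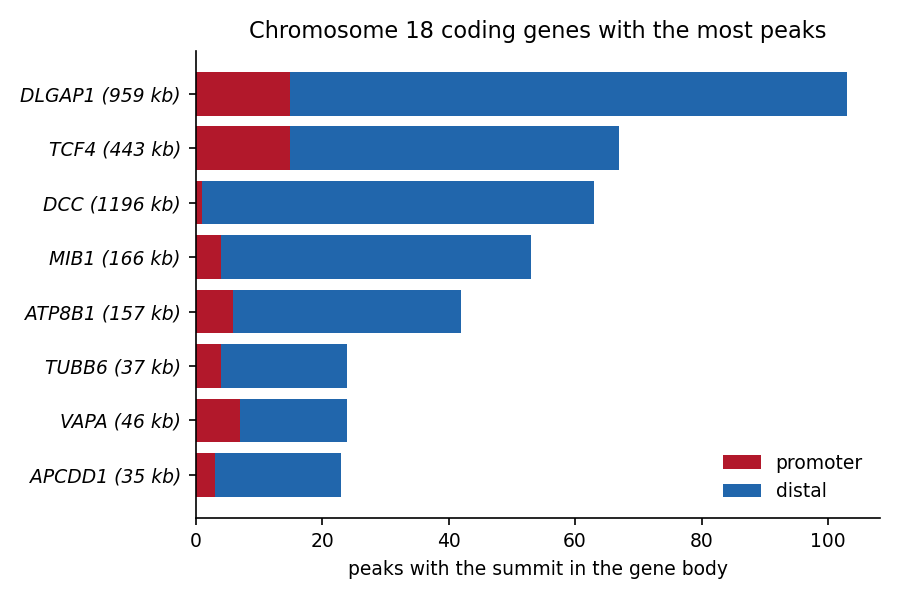
Number of peaks with the summit inside the gene body, at promoters (red) and distal (blue), for the 8 coding genes of chromosome 18 with the most, with the gene length in brackets. DLGAP1 held 103, and TUBB6, VAPA and APCDD1 held 23 or 24 in much shorter bodies.

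Bound genes were counted as those with at least 1 promoter peak. On chromosome 18, 273 of 806 coding and lncRNA genes were bound, or 33.9% (30.6 to 37.3), below the 41.9% of such genes over all chromosomes. Protein-coding genes went the other way, with 181 of 266 bound, or 68.0% (62.1 to 73.6), the highest of 23 chromosomes, against 59.4% over all chromosomes, 61.5% on chromosome 13 and 56.2% on chromosome 4. The interval of chromosome 13 (55.9 to 66.8) overlapped that of chromosome 18. Chromosome 14, at 66.7%, and chromosome 2, at 64.6%, lay inside the interval of chromosome 18, so its first rank is not resolved. Of 540 lncRNA genes, 92 were bound, or 17% (14.0 to 20.5), against 22.9%. With a fold enrichment of at least 5, 141 coding genes were bound, or 53.0% (46.8 to 59.1), an interval that holds the 49.6% of all chromosomes. The best promoter peaks of bound coding genes had a median fold enrichment of 8.56, close to the 8.67 over all chromosomes. Neighbouring genes can share a promoter window, so 1 peak can count for 2 genes.

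Lists of chromosome 18 genes, set by the known roles of their products, were read against the 59.4% of coding genes bound over all chromosomes. They differed widely in their bound share. All 12 genes of the spindle, kinetochore and centrosome list were bound, with a median best fold enrichment of 13.2 (4.77 to 31.2). After NDC80 came CEP192 at 17.5 and VPS4B at 17.4, which remodels the ESCRT-III polymer during cell division, then SEH1L at 14.8, a nucleoporin. SKA1, a kinetochore protein, had 13.3 with a pileup of 64 fragments (49.3 to 81.7). MAPRE2, a microtubule end-binding protein, was the weakest at 4.77 with a pileup of 28 (18.6 to 40.5).

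All 18 genes of the mitochondrion, RNA and protein synthesis list were bound as well, with a median of 11.4. RPL17 led, followed by TIMM21, TXNL4A and THOC1, and FECH, the last enzyme of haem synthesis, was lowest at 4.07. The peak of PSMG2, at 12.1, was also that of CEP76 on the spindle list. Of the 13 genes for DNA synthesis, repair and chromatin, 12 were bound, with a median of 9.10. They included INO80C, a chromatin remodeller subunit, at 16.3, TYMS, the thymidylate synthase gene, at 15.8, RBBP8, which starts DNA end resection, at 11.7 and SS18, a BAF complex subunit, at 10.8. L3MBTL4, in the longest stretch without a peak, was the exception.

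All 9 SMAD pathway genes, which act in TGF-beta and BMP signalling, were bound, with a median of 7.56. SMAD4, the common partner of the receptor SMADs, had 13.8, TGIF1 12.4, SMAD2 8.53 and the inhibitory SMAD7 6.97. NEDD4L had 3.97 with a pileup of 20 (12.2 to 30.9). The peak of PIAS2, at 13.1, was shared with KATNAL2 of the spindle list. Of 15 zinc finger genes 12 were bound, with a median of 8.86, and ZBTB7C, SALL3 and ZNF519 were not. Of 7 cell death and kinase genes 6 were bound, with PMAIP1, which encodes the death protein NOXA, at 14.6 and BCL2, which opposes it, at 5.81.

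The remaining lists lay below the background share. Only 7 of 18 neural and receptor genes were bound, with a median of 4.46. DCC at 7.98 and DLGAP1 at 5.75 were the highest, although both held long runs of peaks in the body, and the melanocortin receptor genes MC2R, MC4R and MC5R were not bound. Of 11 cadherin genes 2 were bound, CDH2 (N-cadherin) at 7.0 and CDH7 at 3.53. None of the 7 desmosomal cadherin genes (DSC1, DSC2, DSC3, DSG1, DSG2, DSG3 and DSG4), which serve epithelial cell contacts, had a promoter peak or a summit in the body. Of 10 clade B serpin genes, a cluster of protease inhibitors on the long arm, only SERPINB8 was bound, at 11.5 with a pileup of 56 fragments (42.3 to 72.7). These lists were written with earlier results of these data known, and members of the last pair of clusters are neighbours.

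**Figure D5:**
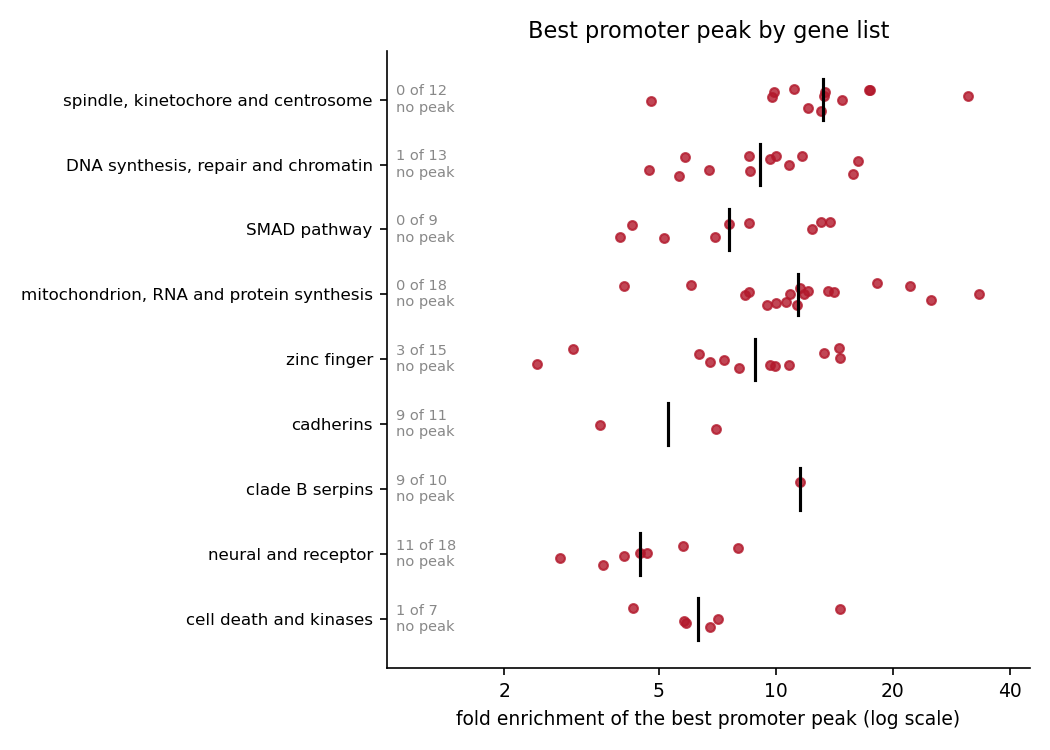
Fold enrichment of the best promoter peak of each gene (points, log scale) for 9 lists of chromosome 18 genes, with the median of the bound genes as a bar and the number of genes without a promoter peak at the left. The spindle, mitochondrion and SMAD lists had 0 genes without a peak, whereas 9 of 11 cadherin genes and 9 of 10 serpin genes had none.

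Short sequence elements were counted in the 101 bases at each summit and in windows of the same length centred 500 bp to either side. At promoter peaks the flanks had a lower GC content than the summits, 49.5% against 58.4%. At distal peaks both had 39.6%. The shares were not adjusted for base composition. At the 418 promoter peaks of chromosome 18, 11.7% of summits held a MYB site (8.80 to 15.2), against 8.61% of flanks, while promoter peaks of the other chromosomes had 9.27% and 9.0%. At the 961 distal peaks 9.89% of summits (8.07 to 11.9) and 11.2% of flanks held one, against 11.1% and 9.55% elsewhere. The flank value lay just below the counting interval at promoter peaks and inside it at distal peaks. It is also a count, and its own error is left out of this comparison. The distal ratio of summits to flanks was 0.884, and it turned to 1.11 among the 89 distal peaks enriched at least 5-fold and to 1.04 with windows of 100 bp either side of the summit, so no direction is given for it. The promoter ratio was 1.36 and stayed above 1, between 1.22 and 1.43, under the 3 alternatives run, which used the same peaks or a part of them. CHR elements were at 7.89% of promoter summits and 7.30% of flanks, against 6.38% and 7.15% elsewhere. For distal peaks they were at 11.8% and 11.1%, against 11.4% and 10.7% elsewhere. The ratio of summits to flanks for the CHR element at distal peaks was 1.06. It was 1.12 with a −log10 q of at least 5 and 1.03 with windows of 100 bp either side. Only among the 89 distal peaks enriched at least 5-fold was it 1.86, a value given without an interval. The CCAAT box was at 16.3% of distal summits (14.1 to 18.8) and 14.0% of flanks, against 14.4% and 12.7% elsewhere.

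An ETS core (CCGGAAGT) was found at 5 promoter summits, or 1.20% (0.390 to 2.77), with 0.239% in the flanks, against 1.78% and 0.218% elsewhere. An E2F site (TTTGGCGC, TTTCGCGC, TTTCCCGC or TTTGCCGC) was at 3 promoter summits, or 0.718%, with 0.598% in the flanks, against 1.15% and 0.648% elsewhere. The AP-1 site (TGANTCA) was at 4.16% of distal summits (2.99 to 5.63) and 3.02% of flanks, against 4.13% and 2.97% elsewhere. A run of 4 GGAA units, the element to which the EwS fusion EWSR1-FLI1 is known to bind, was at 0 of 418 promoter summits, which allows a share of up to 0.718% by a limit of 3 counts and 0.879% by the Clopper-Pearson interval, and at 1 of 961 distal summits. On the other chromosomes the GGAA run was at 1 of 22525 promoter summits and 23 of 43050 distal summits. These elements are short, the 6-letter ones can overlap one another, and a match does not show that a factor was bound.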

How the data were processed

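Single-end reads of 1 MYBL2 ChIP and 1 input library were aligned by the authors to hg19, and narrow peaks were called against the input. The submitters' processing notes name Bowtie2 2.1.10 and MACS2 2.0.10. The deposited list gives positions, a score, the fold enrichment as a ratio, and −log10 p and −log10 q, all set by the authors' caller. The weakest chromosome 18 peak had a q of 0.0441. What a later cleaning step removed is not given in the sources used here (peak numbers run to 66964, and 10 are absent). Members, gene lists and named items were chosen with earlier results of these data known.

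Pileup and background were solved from the deposited fold enrichment, (pileup + 1) / (background + 1), and the −log10 p, an upper Poisson tail. A whole-number pileup was found for every peak, with a misfit of at most 2.18e-05 on chromosome 18, and the method was checked on simulated peaks. With a genome size of 2700000000 bp and a fragment of 164 bp, the smallest width, the floor of 3.45 corresponds to about 56800000 ChIP and 60900000 input reads. Genes were 20098 protein-coding and 18592 lncRNA genes of GENCODE lifted to GRCh37. The summit was placed in the canonical transcript. The arms were split at the assembly gap from 15410899 to 18510898. Positions count from 1. Intervals are exact Poisson or Clopper-Pearson intervals at 95% (of a median, from order statistics). With 1 library per group they hold no replicate error, and they treat fragments and peaks as independent. Duplicates of a fragment are no new molecules and peaks were clustered, so the intervals can be too narrow. Named were the 10 strongest peaks, the 5 strongest distal ones, the 5 of highest background, the 3 widest, the densest and emptiest bins, the 5 genes with the most body peaks, and members of the 9 gene lists. One of the strongest peaks is not reported here. Other names were chosen after their values were seen. Alternatives covered peak thresholds, promoter windows, gene classes, bin sizes and motif windows. Python 3.11.15, numpy 2.4.6, pandas 2.3.3 and scipy 1.17.1 were used.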

Additional observations from a re-analysis of the deposited data

How the results depend on the processing

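The cause of the moves was not tested. Of 40 recomputed motif ratios 4 passed to the other side of 1, 2 of them of the MYB site at distal peaks. Requiring a −log10 q of at least 5 left 677 peaks (9.07 per Mb), with 40.8% at promoters, a median background of 4.83 (difference from the other chromosomes 0.857), a spread over bins of 59.8% and a promoter minus distal median fold enrichment of 1.69, against 0.942 with all peaks. A fold enrichment of at least 5 left 256 peaks (3.43 per Mb, 0.605 times the density of all chromosomes, against 0.782), with 65.2% at promoters, 25.1% of genes bound, a background of 4.64 (difference 0.912), a spread of 54.7% and a MYB site ratio of summits to flanks at distal peaks of 1.11, against 0.884 (1.04 with windows of 100 bp either side). A −log10 q of at least 5 also gave a CHR ratio at promoters of 0.976, against 1.08, and an AP-1 ratio there of 1.14, against 0.750. Without promoter peaks the density was 12.9 per Mb (0.829 times that of all chromosomes), the background 5.20 and the spread 72.4%. At promoters alone the background was 4.66 (difference 0.870), and above the floor the difference was 0.384. The promoter share was 24.3% with 500 bp either side, 40.2% with 5000 bp upstream to 1000 bp downstream, 18.4% with only the outermost TSS and 26.5% with coding genes only, and the promoter minus distal fold enrichment was 1.40 and 0.590 with the first pair of windows. The bound share of coding genes alone was 68.0%. The spread was 119% in bins of 1 Mb and 57.2% in bins of 10 Mb. The ratio of arms moved less than its counting interval under each alternative run. The recovered pileup, used in place of the fold enrichment, differed by 4 fragments between promoter and distal medians. No paired analysis was possible because no result came from a test and the groups had 1 library each. For the same reason no library could be left out. Depth limited the ranking of weak peaks.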

Other observations

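After the printed sequences had been read, a cAMP response element (CRE, TGACGTCA, the site of CREB and ATF proteins) was sought in the same windows. It was found at the summits of 3 of the 10 strongest chromosome 18 peaks, those of CTDP1, NDC80 and THOC1. At all 418 promoter summits of the chromosome it was found in 6, or 1.44% (0.529 to 3.10). Of the flank windows, 1 at lower coordinates and 0 at higher coordinates held it. All 6 were among the 167 promoter peaks enriched at least 5-fold, which gives 3.59% of these (1.33 to 7.66), against 0.881% of such peaks on the other chromosomes (94 of 10668). At distal peaks it was at 1 of 961 summits. The element was chosen because it was seen in the strongest peaks, and the 3 peaks named above are among the 6. The chromosome 18 shares thus include the peaks that prompted the search, and their intervals do not measure a difference from other chromosomes. These shares are a description of 1 library.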
